A study of Mus musculus with 11 samples.

Results

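The genes described here are those of the cytosolic ribosome. They were chosen by name, as every probe other than controls whose gene name in the array files is Rpl or Rps with a number (and a, l or x where present) or Rplp0, Rplp1 or Rplp2. This rule found 79 of the 36413 gene names on the array and 164 of its 55681 probes. Of these, 76 genes with 155 probes passed the limit on detection, among 23633 detected probes in all, and 30 of the 76 encode proteins of the small subunit and 46 proteins of the large subunit. Rpl3l, Rpl10l and Rpl39l, related copies of Rpl3, Rpl10 and Rpl39 known from striated muscle or testis, were not well above background on any of the 11 arrays.

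RNA came from the descending aorta of male C57BL/6 mice aged 20 months. In the nitrate group (5 mice), the drinking water held 1 g/L NaNO3 over 8 weeks. In the control group (6 mice) the labels give the agent as control, call each array a reanalysis of an earlier sample, and carry the same treatment text as the nitrate group, while the methods of the study name NaCl water for controls. Whether both groups were housed at the same time was not tested, and the sixth nitrate array of the study was not analysed here. RNA of a whole vessel was hybridized, so that fewer cells of a type and less RNA per cell cannot be told apart.

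A ribosome is built from ribosomal RNA and proteins, most of which it holds in equal number, and cells make these proteins in step with each other. Most of their mRNAs begin with a stretch of C and T bases at the 5′ end, the terminal oligopyrimidine (TOP) motif, through which their translation is controlled by the kinase mTOR and the protein LARP1. Their level in the aorta therefore describes the supply of templates and not the rate of protein synthesis.

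The starts of 10 of these genes are shown as RefSeq gives them (GRCm38.p6), since the TOP motif is a sequence feature for which these transcripts are known. Each window has 15 bases before and 15 bases from the annotated start, and capitals mark its longest unbroken run of C or T where that run has at least 8 bases.
Rpl7a, chr2:26910792-26910821, plus strand: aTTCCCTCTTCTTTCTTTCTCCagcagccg
Rpl4, chr9:64173372-64173401, plus strand: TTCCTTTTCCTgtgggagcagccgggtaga
Rpl12, chr2:32961697-32961726, plus strand: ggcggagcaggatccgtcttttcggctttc
Rpl27, chr11:101442230-101442259, plus strand: acgctctgttcctgtctgctgctcgtgctg
Rpl35, chr2:39005117-39005146, minus strand: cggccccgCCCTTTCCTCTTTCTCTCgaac
Rpl24, chr16:55966260-55966289, plus strand: agaaagctgttgctaggaaacagactgggc
Rps6, chr4:86857353-86857382, minus strand: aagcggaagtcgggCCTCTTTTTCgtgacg
Rps10, chr17:27635230-27635259, minus strand: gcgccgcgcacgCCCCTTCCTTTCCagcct
Rplp2, chr7:141447636-141447665, plus strand: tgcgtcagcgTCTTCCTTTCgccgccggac
Rpl28, chr7:4792950-4792979, plus strand: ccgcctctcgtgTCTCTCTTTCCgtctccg

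The first 6 are members with a P value under 0.05 or no overlap between the groups, and the others are further members that have the run. In Rpl4 the run lies before the annotated start. The RefSeq table holds 70 starts for 58 of the 79 genes. A run of at least 8 C or T on the transcribed strand lay in 27 of these 70 windows (38.6%), against 12.0% of the 32851 windows of all genes. On the other strand such a run was found in 4.3% of the windows of ribosomal protein genes and in 13.2% of all windows. Rpl12, Rpl27 and Rpl24 have no such run in the window shown, which says only that these letters are not there at the annotated start. A run is a description of the window and not a measured start.

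The question of the comparison is which transcripts differ between old nitrate treated mice and old mice. Values are log2 signals after quantile normalization of the 11 arrays, which sets the distribution of signals of every array equal, and each gene is represented by its brightest detected probe. The ribosomal protein transcripts differed little between the groups. In nitrate treated mice, 65 of the 76 genes (85.5%) had a higher mean than in controls and 11 had a lower one, where 53.8% of all detected probes had a higher mean. Their median difference was 0.057 on the log2 scale, against 0.014 over all detected probes, and the interquartile range ran from 0.026 to 0.089.

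The limits of the study are a fold change above 1.2 and a P value of the moderated limma fit under 0.05, without adjustment. No ribosomal protein gene passed them, while 9.00% of all detected probes did. Without the limit on the fold change, 5 of 76 genes (6.58%) had a P value under 0.05, against 14.4% of all detected probes. All 5 were higher in nitrate treated mice and encode proteins of the large subunit, where 7.71% of all detected probes were higher with such a P value. After Benjamini-Hochberg adjustment over all detected probes none passed 0.05, with a smallest adjusted limma P value of 0.309, and 0.0127% of the array did. In 4 genes every nitrate treated mouse lay above every control, and the groups did not overlap in 2.75% of all detected probes.

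The two-sided exact permutation test over all divisions of the mice, whose smallest P value is 0.00216, gave a P value under 0.05 to 14 of the 76 genes (18.4%), against 14.7% of all detected probes. These were the 5 genes of limma's test and Rps3a, Rps13, Rps20, Rpl6, Rpl9, Rpl11, Rpl24, Rpl29 and Rpl35, all with a higher mean in nitrate treated mice. The tests differ in the spread they use. The SD between mice of the ribosomal protein genes had a median of 0.054 in nitrate treated mice and 0.100 in controls, against 0.164 and 0.182 over all detected probes, and limma's common prior raises the error of probes with a small SD. With a prior variance that follows the signal, limma gave 8 of 76 genes an unadjusted P value under 0.05, against 14.9% of all detected probes.

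**Figure D1:**
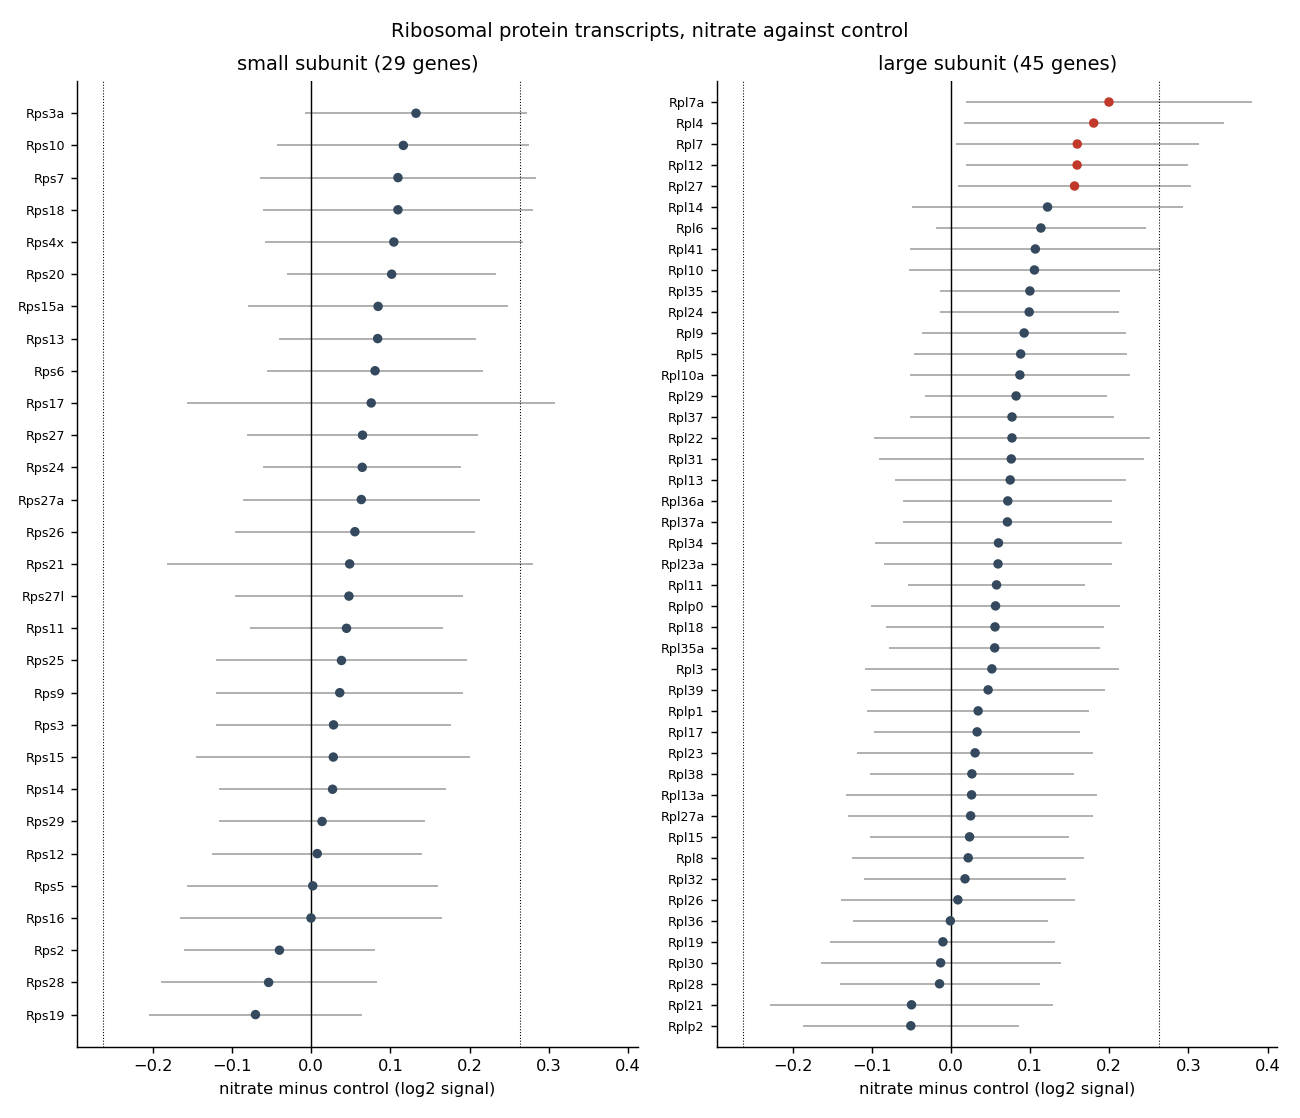
Difference between nitrate treated mice and controls (log2 signal, x axis) for 29 small subunit genes (left) and 45 large subunit genes (right), with 95% confidence intervals from limma's fit and red points for an unadjusted P value under 0.05. Dotted lines mark a fold change of 1.2, which no point reaches, and 64 of the 74 points lie to the right of 0.

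Each interval covers 1 probe per gene after quantile normalization and is not adjusted for the number of genes. Over the 76 genes, the 95% confidence interval reached at most a 1.30-fold higher signal, for Rpl7a, and at the lower end a ratio of 0.854, for Rpl21. The Rpl21 probe was the dimmest of the 76, with a mean log2 signal of 6.45. Over all 155 detected probes of these genes the intervals reached ratios of 0.732 and 2.74, both for the same Rpl17 probe. Differences of the 76 genes ran from -0.07 for Rps19 to 0.20 for Rpl7a. The small subunit had a median difference of 0.052 with 26 of 30 genes higher, and the large subunit a median of 0.059 with 39 of 46 higher. A difference between the subunits was not tested.

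**Figure D2:**
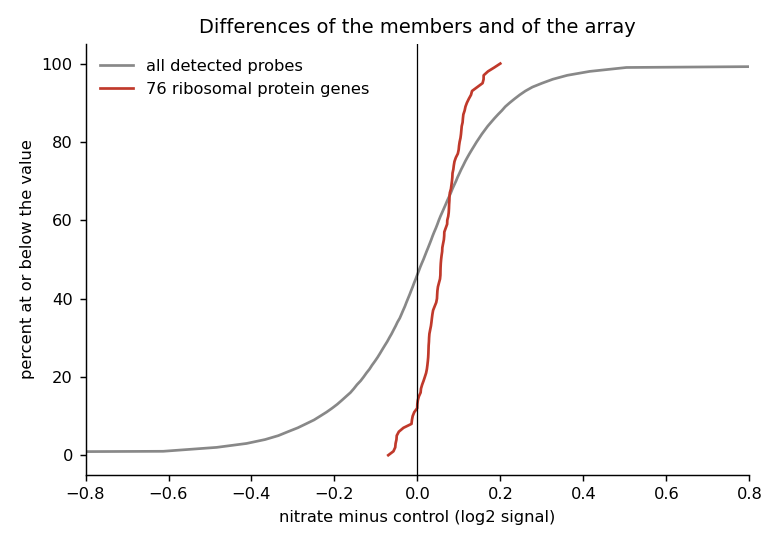
Cumulative percent (y axis) of the differences between nitrate treated mice and controls (log2 signal, x axis) for the 76 ribosomal protein genes in red and all 23633 detected probes in grey. The red curve is steeper, with a median of 0.057 against 0.014, and the curves cross above the median. The differences beyond 0.2 in either direction belong to the grey curve.

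Rpl12, whose protein sits at the base of the stalk where elongation factors bind, had the smallest P value in limma's test. Its probe (mm9, chr2:32819082-32819298, plus strand) had log2 signals of 15.13, 15.13, 15.07, 15.01 and 15.08 in the nitrate treated mice. The controls ran from 14.82 to 15.08, with a median of 14.91. Only the highest control reached the nitrate range, and the means were 15.08 ± 0.05 (SD, n = 5) and 14.92 ± 0.10 (SD, n = 6). The difference was 0.16 ± 0.06 (SE), with an unadjusted limma P value of 0.0294 and an adjusted one of 0.309 (exact permutation test, p = 0.0173). A second Rpl12 probe differed by 0.11 in the same direction.

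Rpl4, which lines the tunnel through which the nascent chain leaves the ribosome, showed no overlap. The probe (mm9, chr9:64026265-64026324) had signals of 14.29, 14.37, 14.37, 14.26 and 14.30 in nitrate treated mice. Controls ran from 13.87 to 14.24, with a median of 14.18, and control 1 was by far the lowest. The difference was 0.18 ± 0.08 (SE), with an adjusted limma P value of 0.319 (exact permutation test, p = 0.00866). Without control 1 it was 0.13, with an unadjusted limma P value of 0.0406.

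Rpl7, another protein of the large subunit, had signals of 15.41, 15.41, 15.41, 15.50 and 15.50 in nitrate treated mice and from 15.04 to 15.39 in controls (median 15.31). Its groups did not overlap either, and control 1 again had the lowest value. The difference of 0.16 ± 0.07 (SE) had an unadjusted limma P value of 0.0431 (exact permutation test, p = 0.00649). Without control 1 the difference was 0.11, with an unadjusted limma P value of 0.0566. All 4 Rpl7 probes were higher in nitrate treated mice, by 0.07 to 0.16.

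Rpl27 had signals of 14.88, 14.79, 14.75, 14.86 and 14.78 in nitrate treated mice and from 14.46 to 14.77 in controls (median 14.69). The lowest nitrate treated mouse lay just under the highest control. The difference was 0.16 ± 0.07 (SE, exact permutation test, p = 0.00866), and without control 1 it was 0.12, with an unadjusted limma P value of 0.0609. The other Rpl27 probe differed by 0.03, with an unadjusted limma P value of 0.622.

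Rpl7a had the largest difference among the 76 genes, and also the largest spread among nitrate treated mice of the 5 genes with a P value under 0.05. The signals were 14.69, 14.86, 14.54, 14.81 and 14.50 in nitrate treated mice and from 14.38 to 14.63 in controls (median 14.48). Nitrate treated mice 3 and 5 lay within the control range. The difference was 0.20 ± 0.08 (SE), with an unadjusted limma P value of 0.0330 (exact permutation test, p = 0.0325) that rose to 0.0519 without control 1.

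A pair of Rpl7a probes is placed on the same 60 bases (mm9, chr2:26768759-26768818, plus strand) and differs at 6 of them. The first 30 bases are shown, with the positions at which the pair differs in capitals, because near-identical copies of these genes leave the target of a probe in doubt.
A_55_P2001347: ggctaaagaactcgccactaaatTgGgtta
A_55_P2037922: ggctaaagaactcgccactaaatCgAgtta

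Counted from the 5′ end, the substitutions from the first to the second probe are T24C, G26A, T37C, G38A, G41A and A52C. The first probe gave the values above, and the second a difference of 0.14, with all nitrate treated mice above all controls (exact permutation test, p = 0.00433). The other pair of Rpl7a probes differed by 0.09 and 0.04. Which transcript each probe binds was not tested.

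Rpl35, which lies beside the exit of the tunnel, and Rpl24, which takes part in a bridge between the subunits, are the other genes without overlap. Rpl35 had signals of 16.04, 16.13, 16.03, 16.06 and 16.04 in nitrate treated mice and from 15.89 to 15.99 in controls (median 15.97). The difference was 0.10 ± 0.05 (SE), with an unadjusted limma P value of 0.0804 and the smallest value of the other test (exact permutation test, p = 0.00216). It was 0.10 without control 1 as well. Rpl24 had signals of 15.37, 15.36, 15.37, 15.31 and 15.32 against a range of 15.21 to 15.31 in controls, with a median of 15.22, and its groups touch at 2 decimals. Its difference was also 0.10 (exact permutation test, p = 0.00649), and 0.09 without control 1.

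**Figure D3:**
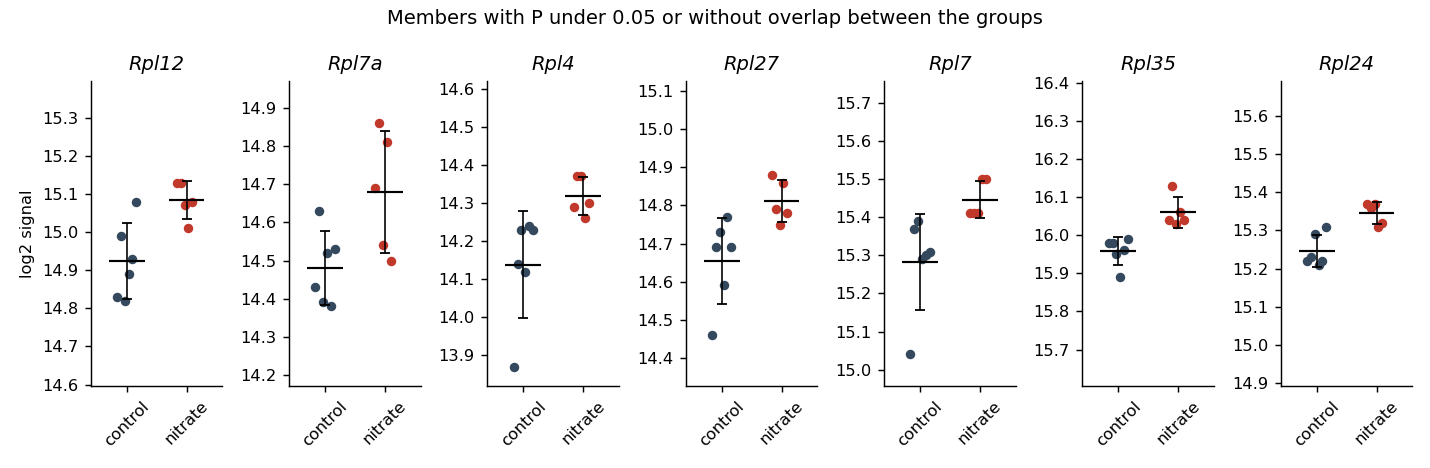
Log2 signal (y axis, each panel spanning 0.8 log2 units) of the 7 genes with an unadjusted P value under 0.05 or without overlap between the groups, for 6 controls and 5 nitrate treated mice. Points are mice, and bars show the mean and SD. Rpl4, Rpl7, Rpl35 and Rpl24 do not overlap, and control 1, drawn leftmost, is the lowest point in Rpl4, Rpl27 and Rpl7.

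Among proteins of the small subunit none had a P value under 0.05 in limma's test. The smallest was that of Rps3a, at 0.0629, with a difference of 0.13 ± 0.06 (SE). Rps10 differed by 0.12, Rps18 by 0.11 and Rps20 by 0.10. The other Rps18 probe differed by -0.04, and the mean of both by 0.03. Rps6, the ribosomal substrate of S6 kinase, differed by 0.08 ± 0.06 (SE, exact permutation test, p = 0.106). Rps27a, made as a fusion with ubiquitin, differed by 0.06, the X-linked Rps4x by 0.10 and Rps14 by 0.03, each with an unadjusted limma P value above 0.05. Rps27 and its copy Rps27l, a p53 target, differed by 0.06 and 0.05. Without control 1 the differences were 0.06 for Rps18, 0.05 for Rps6, 0.03 for Rps27a, 0.06 for Rps4x, 0.02 for Rps27 and -0.01 for Rps14. That of Rps27l was larger without this mouse, at 0.08. With slide as a block Rps10 differed by 0.14, with an unadjusted limma P value of 0.0478.

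The acidic stalk proteins Rplp0, Rplp1 and Rplp2, which recruit elongation factors, did not go one way. Their differences were 0.06, 0.03 and -0.05, each within its error, and 0.04, 0.005 and -0.08 without control 1. Rplp2 and Rps19, a gene mutated in Diamond-Blackfan anaemia, were among the 11 genes with a lower mean, as were Rps28, Rpl21, Rps2, Rpl28, Rpl30, Rpl19, Rpl36 and Rps16. Rpl36 and Rps16 had differences of only -0.0007 and -0.0003. The other Rps16 probes differed by 0.12 and 0.10, and the other Rpl36 probes by 0.03 and -0.01. None of the 11 had a P value under 0.05. Rpl3, at the peptidyl transferase centre, differed by 0.05, Rpl10, which joins the subunit last, by 0.11, Rpl22 by 0.08 and Rpl39 by 0.05. Rpl41, the shortest of the ribosomal proteins, differed by 0.11 and Rpl14 by 0.12, each with an unadjusted limma P value above 0.05. Without control 1 the differences were -0.002 for Rpl3, 0.06 for Rpl10, 0.04 for Rpl22, 0.01 for Rpl39, 0.08 for Rpl41 and 0.08 for Rpl14. Rpl5, which forms a particle with 5S ribosomal RNA, differed by 0.09 ± 0.06 (SE).

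The genes varied together from mouse to mouse. Relative to the mean of the 11 mice, the average over the 76 genes was 0.068, 0.044, 0.036, -0.009 and 0.017 in nitrate treated mice 1 to 5, and -0.145, 0.041, -0.063, -0.040, -0.031 and 0.082 in controls 1 to 6. The controls spanned the whole range, with both the lowest and the highest average of the 11 mice. Control 1 had the lowest signal of all mice in 48 of the 76 genes, and control 6 the highest in 33. The average over the genes held 46.4% of their variance within groups, and the correlation between pairs of the genes had a median of 0.54 over the 11 mice, with group means removed. These genes share each array, its labelling and its normalization, and 44 of the 76 probes lie in the brightest 1% of the signals.

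**Figure D4:**
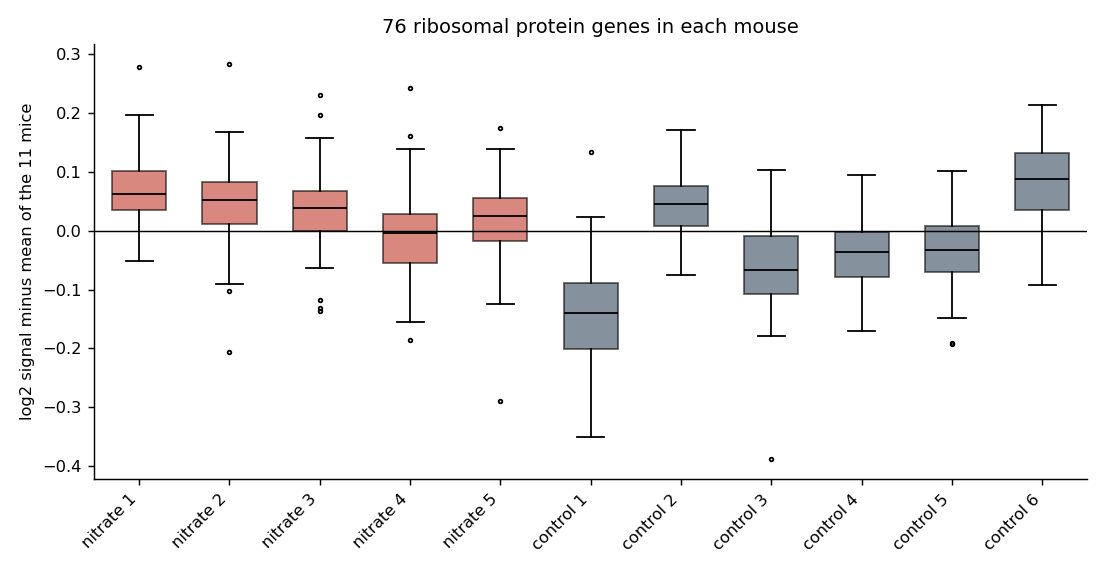
Distribution over the 76 ribosomal protein genes of the log2 signal relative to the mean of the 11 mice (y axis), for each mouse (x axis). Boxes show quartiles with the median as a line, whiskers reach 1.5 times the interquartile range and dots lie beyond. Control 1 lies lowest and control 6 highest, and the 5 nitrate treated mice lie between them.

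The group difference of these averages was 0.057, with an SD between mice of 0.029 in nitrate treated mice and 0.080 in controls. It was 0.033 without control 1. Without that mouse, 55 of the 76 genes had a higher mean in nitrate treated mice and 2, Rpl12 and Rpl4, had an unadjusted limma P value under 0.05, against 12.0% of all detected probes in the same fit. Leaving out nitrate treated mouse 2 left no gene with such a P value, against 9.85% of all detected probes. When each array was scaled to its 75th percentile in place of quantile normalization, 58 of 76 genes were higher, the median difference was 0.036, and 2 genes (2.63%), Rpl4 and Rpl7, had an unadjusted limma P value under 0.05, against 13.9% of all detected probes.

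The 3 slides each held both groups. Within slides 1, 2 and 3 the median difference of the 76 genes was 0.109, 0.029 and 0.055, with 68, 46 and 61 genes higher. Column 3 of the slides held the 6 controls and none of the nitrate arrays, which means that column and treatment cannot be told apart.

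For 50 genes the array has more than 1 detected probe, and in 39 of these all probes of the gene went one way. The range of differences between probes of a gene had a median of 0.051, close to the median difference itself. Of the 155 detected probes, 9 (5.81%) had an unadjusted limma P value under 0.05, against 14.4% of all detected probes, all 9 higher in nitrate treated mice. Besides the 5 probes above they included the second Rpl7a probe and 1 each of Rpl13 and Rpl17. The widest range was that of Rpl17, whose 6 detected probes differed by 0.03 to 0.50. The highest of these had a signal of 9.95 in control 5 and between 11.68 and 12.83 in the other 10 mice.

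**Figure D5:**
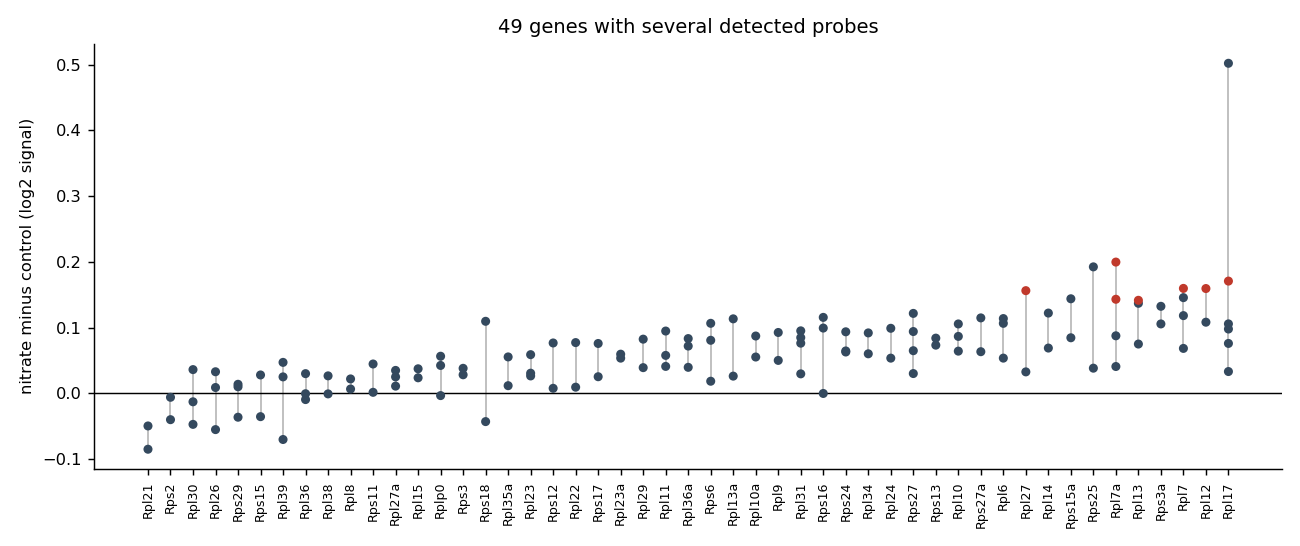
Differences between nitrate treated mice and controls (log2 signal, y axis) for each detected probe of 49 genes with several probes (x axis, ordered by mean). Lines join probes of a gene and red points have an unadjusted P value under 0.05. Rpl17 has the widest range, 0.47.

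Probe targets limit these values. RefSeq names 303 pseudogenes after the genes of this rule, and probes could also bind related transcripts. All 79 genes matched the RefSeq table, 1 of them (Rps3a) by an older symbol. Of 154 detected probes with a position, 11 probes of Rps27, Rps29, Rps4x, Rpl13, Rpl31 and Rpl36 are placed by the files on another chromosome than the gene, and their differences ran from -0.04 to 0.14. They include all detected probes of Rps27, Rps29 and Rps4x, and the probe that represents Rpl31. Positions within a chromosome were not checked. The Rps2 probes lie apart (mm9, starts at chr17:42864841 and chr17:24857583), with differences of -0.04 and -0.006, the first representing the gene. The probe of Rpl23 that was spotted 10 times on each array had an SD between spots of 0.042 to 0.093 within an array.

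Genes that work beside the ribosomal proteins were split between the directions. Of 23 detected elongation factors and other transcripts with a TOP motif, 14 were higher, with a median difference of 0.022 (average 0.031, and -0.002 without control 1). Of 26 initiation factors 10 were higher (median -0.010), and of 70 ribosome biogenesis factors 35 were higher (median 0.000, average 0.011, and -0.009 without control 1). In this last list 4 genes were higher and 1 lower with an unadjusted limma P value under 0.05, against 14.4% of all detected probes in either direction. Taf1b, a subunit of the RNA polymerase I selectivity factor, rose by 0.38 ± 0.10 (SE), with every nitrate treated mouse above every control (exact permutation test, p = 0.00216). Of 30 detected regulators of ribosomal protein transcription and of mTOR, 16 were higher, with a median of 0.038 and an average of 0.006 that was -0.002 without control 6. Eif4ebp2, a translation repressor that mTOR phosphorylates, passed the limits of the study with a fall of 0.35 (exact permutation test, p = 0.0714). Of the 8 detected ribosomal protein genes whose names fall outside the rule, 5 were higher, with a median of 0.025 and an average of -0.013. Rps4y2 had a difference of -0.29 (exact permutation test, p = 0.0173) and Rpl22l1, a copy of Rpl22 named after its value was seen, one of 0.22 (exact permutation test, p = 0.00649). No adjusted limma P value in these lists was under 0.05, the lowest being 0.159.

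The proteins of the mitochondrial ribosome, which translates the few mRNAs of the organelle, are encoded by other genes and went the other way. Of 70 detected genes only 5 were higher in nitrate treated mice, with a median difference of -0.121. The average over the list differed by -0.126, and by -0.061 without control 1. By limma 6 passed an unadjusted P value of 0.05, all lower, where 14.4% of all detected probes passed it. Of these, 4 passed the limits of the study, as 9.00% of all detected probes did, namely Mrpl30 with a difference of -0.35, Mrpl35 with -0.35, Mrps11 with -0.34 and Mrpl9 with -0.26. Mrpl30, Mrpl35 and Mrps11 were lower in every nitrate treated mouse than in every control (exact permutation tests, p = 0.00433, 0.00216 and 0.00433), where 2.75% of all detected probes had no overlap in either direction. The smallest adjusted limma P value of the list was 0.192. Control 1 was the highest of all mice in the average of this list, at 0.381, and the lowest in that of the cytosolic list.

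Markers of some other cells differed with the groups. Over all detected probes, 14.4% had an unadjusted limma P value under 0.05 and 9.00% passed the limits of the study. All 10 smooth muscle markers were detected and had a higher mean in nitrate treated mice (median 0.18), 2 of them with an unadjusted limma P value under 0.05. Their average differed by 0.16, and by 0.09 without control 1. All 10 fibroblast markers also had a higher mean (median 0.19), 3 of them with such a P value. Of 15 adipocyte markers, 14 were lower, with a median of -0.49, and 10 passed the limits of the study, among them Adipoq, Pparg and Cebpa. Their summed signal, on the log2 scale, lay between 18.16 and 18.55 in nitrate treated mice and between 18.51 and 18.98 in controls. The other marker lists were less one-sided or had few members with an unadjusted limma P value under 0.05. Of the detected markers, 5 of 10 were higher for endothelial cells (median -0.03, average 0.004), 9 of 10 for macrophages (median 0.07, none with such a P value) and 4 of 10 for brown adipocytes (median -0.15). The average of the brown adipocyte markers differed by -0.12, and by 0.02 without control 1, and that of the macrophage markers by 0.06, and by -0.01 without nitrate treated mouse 2. The small averages of the endothelial and nerve markers also changed sign when single mice were left out. For heart muscle 8 of 9 were higher (median 0.77), and the average difference of 0.78 was 0.06 without nitrate treated mouse 4 and 1.41 without control 1. For skeletal muscle 3 of 4 were higher, for nerve 5 of 7 (median 0.07, average -0.003), for T and B cells 2 of 5 and for erythroid cells 1 of 6. Control 1 had the highest adipocyte average (0.56) and the lowest smooth muscle average (-0.43) of the 11 mice, and its heart muscle average was 2.79, second to nitrate treated mouse 4 at 3.33. The part of the cell composition in the ribosomal protein values was not tested.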

How the data were processed

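The authors deposited Feature Extraction intensities for each single-color array and a table of log2 values. Background had been subtracted from the intensities, but arrays had not been normalized to each other, and the deposited log2 values follow quantile normalized values centred on the arrays. Here processed signals below 1 were set to 1 before log2 values were taken. Control spots and spots flagged as outliers (at most 186 of 59305 on an array) were left out, repeated spots of a probe were replaced by their mean, and quantile normalization was run over the 11 arrays. Detection required a found spot, well above background, on 5 or more arrays of either group. limma 3.58.1 (R 4.3.3) compared the groups over all detected probes, beside exact permutation tests. The script was tested on simulated data.

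The rule, the gene lists and the tests were chosen with earlier results of these data known. The genes named are the 20 with the smallest P value, those without overlap, and members fixed by name (Rplp0, Rplp1, Rplp2, Rps27a, Rps4x, Rps6, Rps14, Rps27, Rps27l, Rpl3, Rpl10, Rpl22, Rpl39 and copies). Of the genes of other lists that passed the limits, only some are named. Other genes were named after their values were seen. Of the 76 detected genes, 2 enter the counts but are not reported by name or drawn singly here. Probe positions are mm9, as in the files. Precision is limited by the number of arrays, and whether the mice of a group shared a cage is not given in the sources used here. Alternatives covered normalization, background, detection, the prior variance, slide, row and replicate number as blocks, the choice of probe and each mouse left out.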

Additional observations from a re-analysis of the deposited data

Results flagged for a closer look

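Among the named genes, 4 had a mouse at a distance from the rest of its group, where the value given is the gap to the nearest mouse over the range of the group. Control 1 was low in Rpl4 (0.681), Rpl7 (0.703) and Rpl3 (0.754), and nitrate treated mouse 2 was high in Rpl35 (0.712). Chance alone gives about 1 in 20, or 1.65 of the 33 sets of values examined in each group, and 3 were found in controls and 1 in nitrate treated mice.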

How the results depend on the processing

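The median difference of the ribosomal protein genes was above 0 under all alternatives run, and no named gene with an unadjusted limma P value under 0.05 changed sign. Other named genes changed from higher to lower. Within slide 2 these were Rps14 (-0.115), Rpl14 (-0.074), Rpl22 (-0.063), Rpl3 (-0.025), Rplp1 (-0.012) and Rps20 (-0.0022), and within slide 3 Rplp0 (-0.038) and Rpl3 (-0.0063). Leaving out each mouse, Rpl3 ran from -0.0018 to 0.072 and Rps14 from -0.0071 to 0.050, lowest without control 1. Of the values of named genes under an alternative, 837 kept their direction and their side of the threshold, 57 lost a P value under 0.05, 23 gained one and 10 changed sign. The count of genes with an unadjusted limma P value under 0.05 was 5, against 14.4% of all detected probes. It was 6 with slide as a block (17.4%) and under normexp background correction (13.8%). It moved to 2 with the 75th percentile scaling (13.9%), 8 with a trended prior variance, robust or, chosen after seeing the data, not robust (14.9%), 3 with the row on the slide as a block (13.5%), 1 with the mean of all probes of a gene (14.3%), and 14 with the exact permutation test (14.7%). Without a detection filter it was 9 of 79 genes (11.4%), against 8.41% of all 55681 probes, of which only 23633 were detected. Within each slide alone it was 0, against 13.4%, 7.57% and 6.67% of all probes on slides 1, 2 and 3, on slide 2 with a single nitrate treated mouse assumed to vary like the controls. Leaving out each mouse gave counts from 0 to 5, a median difference from 0.036 to 0.082, and 1596 to 2424 probes called on the array. The number of ribosomal protein genes called was 0 except without a detection filter, where it was 1 (Rpl10l, not well above background on any array), and without a limit on the fold change, where it was 5. The whole array had 2128 called probes, 1218 under normexp background correction and 3224 without a detection filter. Deviations of same-numbered mice of the 2 groups correlated between -0.136 and 0.180, which cannot settle whether replicate numbers pair the mice. With the replicate number as a block, which leaves out control 6, the count was 3, against 13.0% of all detected probes, and the median difference 0.082. For the averages of the other gene lists, leaving out each mouse was chosen after seeing the data.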
